A study of Mus musculus with 11 samples.

Results

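The genes described here are 10 ERK feedback and immediate early genes, chosen by name: Spry2, Spry4, Spred1, Dusp4, Dusp6, Etv4, Etv5, Egr1, Fos and Ier3. All 10 have a column in each of the 5 single-cell tables, which list 21926 to 23139 genes, and 6 of the 10 have a row in the bulk table of 12588 genes. Spry4, Dusp4, Egr1 and Fos were not analysed here in bulk. They were followed in mouse embryonic stem (ES) cells to see which of them are lower in medium with a MEK inhibitor, and which are lower in a line labelled with high plakoglobin.

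In ES cells, FGF4 made by the cells signals through FGF receptors, RAS, RAF and MEK to the kinase ERK, which primes the cells to leave the naive pluripotent state. Active ERK induces immediate early transcription factors such as Egr1 and Fos within minutes, and it also induces its own inhibitors, the Sprouty and Spred proteins and the dual-specificity phosphatases (DUSPs). The level of these feedback transcripts is therefore widely used as a readout of ERK activity. The medium 2i contains an inhibitor of MEK, the kinase that activates ERK, and an inhibitor of GSK3, which raises WNT pathway output.

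The single-cell libraries come from inDrop, in which cells are barcoded in droplets and each molecule carries a unique identifier (UMI), with 1 library per condition. Wild-type cells of the line E14 were grown on plastic in serum with the cytokine LIF (E14 serum/LIF), on plastic in 2i with LIF (E14 2i/LIF), and in agarose microgels in serum with LIF (E14 gel). The other 2 libraries held lines carrying plakoglobin (Jup), a junction protein related to β-catenin, under the constitutive CAG promoter, in serum/LIF on plastic. One is labelled high and the other low, and their parent line and whether each is a single clone are not given in the labels. They are called the libraries labelled JupHigh and JupLow, because Jup itself stood at 47.8 CPM (UMIs of the gene, scaled to a common library total) in the first and 37.9 CPM in the second, a log2 ratio of 0.34 with a 95% interval of -0.01 to 0.68. E14 serum/LIF had 36.7 CPM of Jup. Whether transcripts of the added Jup are counted under this gene was not tested. The bulk data, made with Smart-seq2 from about 1000 cells per library, are 3 libraries from gel and 3 from plastic of the line Rex1GFPd2. All 6 bulk libraries were in 2i/LIF, so MEK was inhibited on both sides of that comparison.

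Barcodes with at least 1000 UMIs were taken as cells, 112 to 2889 per library with a median of 1731.5 to 2465 UMIs, and no barcode was shared between libraries. The gel library was the shallowest, with 236195 UMIs, where 1 UMI is worth 4.23 CPM, and the 2i/LIF library the deepest, with 8284254. ES cell markers summed to between 1103 and 3047 CPM in the 5 libraries, with Sox2 missing from the table of E14 serum/LIF. Endoderm markers summed to 229 CPM there and to 3.38, 72.0, 33.4 and 15.8 CPM in 2i/LIF, gel, JupLow and JupHigh. Fibroblast markers were at 56.0, 3.38, 4.23, 26.8 and 6.50 CPM in the same order. The sums are not over the same genes in each library. Gata6 had no column in 2i/LIF and Amn none in JupHigh. Col3a1 and Lum had none in 2i/LIF and JupHigh, and Lum none in gel and JupLow. Without every cell that held a UMI of either list, the counts of members given below for 2i/LIF (8) and JupHigh (3) were the same.

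Levels of the members are CPM of UMIs summed over the cells of a library, with exact 95% Poisson intervals, and ratios carry exact conditional intervals. Both cover counting error only and not the variation between cultures, since each condition is 1 library, and no test between conditions was possible. A member is said to stand lower in 1 library when its CPM was at least 2-fold lower and the whole interval of the log2 ratio lay below 0. None of the 10 members shares exonic bases with another gene in GENCODE M21, on either strand.

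The sequence upstream of the RefSeq start (GRCm38.p6) was on hand for 6 members with 7 starts, and not for Spry4, Dusp4, Etv4 and Egr1. Shown are those of Dusp6, Spred1, Ier3 and Fos, the members among these 6 that were lower in 2i/LIF. In JupHigh, Dusp6 and Ier3 were lower than in JupLow, and Spred1 was 1.96-fold lower. Fos could not be placed there, since the interval of its log2 ratio, -1.25 to 0.65, did not exclude a 2-fold fall. Capitals mark, on either strand, the ETS core CGGAA, which ETS factors downstream of ERK read. They also mark the cyclic AMP response half-site TGACG. Bases inside the GENCODE gene were left out, which shortens Ier3 to 221 bases. The stretches are chr10:99262981-99263230 for Dusp6, chr2:117120821-117121070 for Spred1, chr17:35821463-35821683 for Ier3 and chr12:85473640-85473889 for Fos, all on the plus strand.
Dusp6: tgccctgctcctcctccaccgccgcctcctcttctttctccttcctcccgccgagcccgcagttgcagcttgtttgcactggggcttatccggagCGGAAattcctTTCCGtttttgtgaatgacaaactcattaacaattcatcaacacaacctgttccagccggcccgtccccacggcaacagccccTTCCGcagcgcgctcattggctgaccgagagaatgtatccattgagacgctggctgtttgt
Spred1: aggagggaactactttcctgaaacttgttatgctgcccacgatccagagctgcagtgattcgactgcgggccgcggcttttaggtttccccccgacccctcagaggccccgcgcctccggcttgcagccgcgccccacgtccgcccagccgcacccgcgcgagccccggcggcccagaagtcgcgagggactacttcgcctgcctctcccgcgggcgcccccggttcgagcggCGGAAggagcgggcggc
Ier3: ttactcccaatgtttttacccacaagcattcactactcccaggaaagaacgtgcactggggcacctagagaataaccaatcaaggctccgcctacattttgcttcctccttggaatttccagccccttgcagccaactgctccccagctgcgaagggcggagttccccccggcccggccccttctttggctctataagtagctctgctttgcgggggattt
Fos: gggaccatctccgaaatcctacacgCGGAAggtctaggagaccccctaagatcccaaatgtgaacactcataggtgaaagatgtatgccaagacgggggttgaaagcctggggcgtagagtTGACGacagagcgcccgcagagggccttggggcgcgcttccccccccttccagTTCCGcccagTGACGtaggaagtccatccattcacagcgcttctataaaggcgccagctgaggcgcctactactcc

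In the 250 bases upstream, the ETS core was found 3 times for Dusp6, 2 times for Fos and 1 time for Spred1, and not for Spry2, Ier3 or either start of Etv5. Of 32851 promoters in the RefSeq table, 25.2% hold it in a window of the same length. The longer form CCGGAA, which contains that core and is held by 12.0% of promoters, was in none of the 7. The half-site TGACG was found 2 times for Fos and in no other member, against 17.8% of promoters. Neither the AP-1 site TGANTCA (6.75% of promoters) nor the CArG box bound by serum response factor (1.47%) was found in these 250 bases. Sequence farther upstream was not searched. These are matches of letters on both strands and were not measured as binding.

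In E14 2i/LIF, 8 of the 10 members were lower than in E14 serum/LIF: Spry4, Spred1, Dusp4, Dusp6, Etv4, Egr1, Fos and Ier3. Spry2 was 1.64-fold lower, short of the threshold, and Etv5 was level. Of the 8951 genes with a mean of at least 10 CPM, 14.6% were at least 2-fold lower in 2i/LIF and 9.19% at least 2-fold higher. Egr1 and Fos were below that mean, and among the other 8 members 6 were lower. The median log2 ratio of these 8 was -2.34, against -0.04 for all genes tested. Spry4, Dusp4, Etv4 and Ier3 were below 10 CPM in 2i/LIF and passed only through serum/LIF. At their 2i/LIF levels, passing required a fall of at least 2-fold, so this count and median were partly set by the filter. The 2 media differ in both inhibitors and in serum, so MEK inhibition cannot be told apart from the rest of the change of medium.

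**Figure D1:**
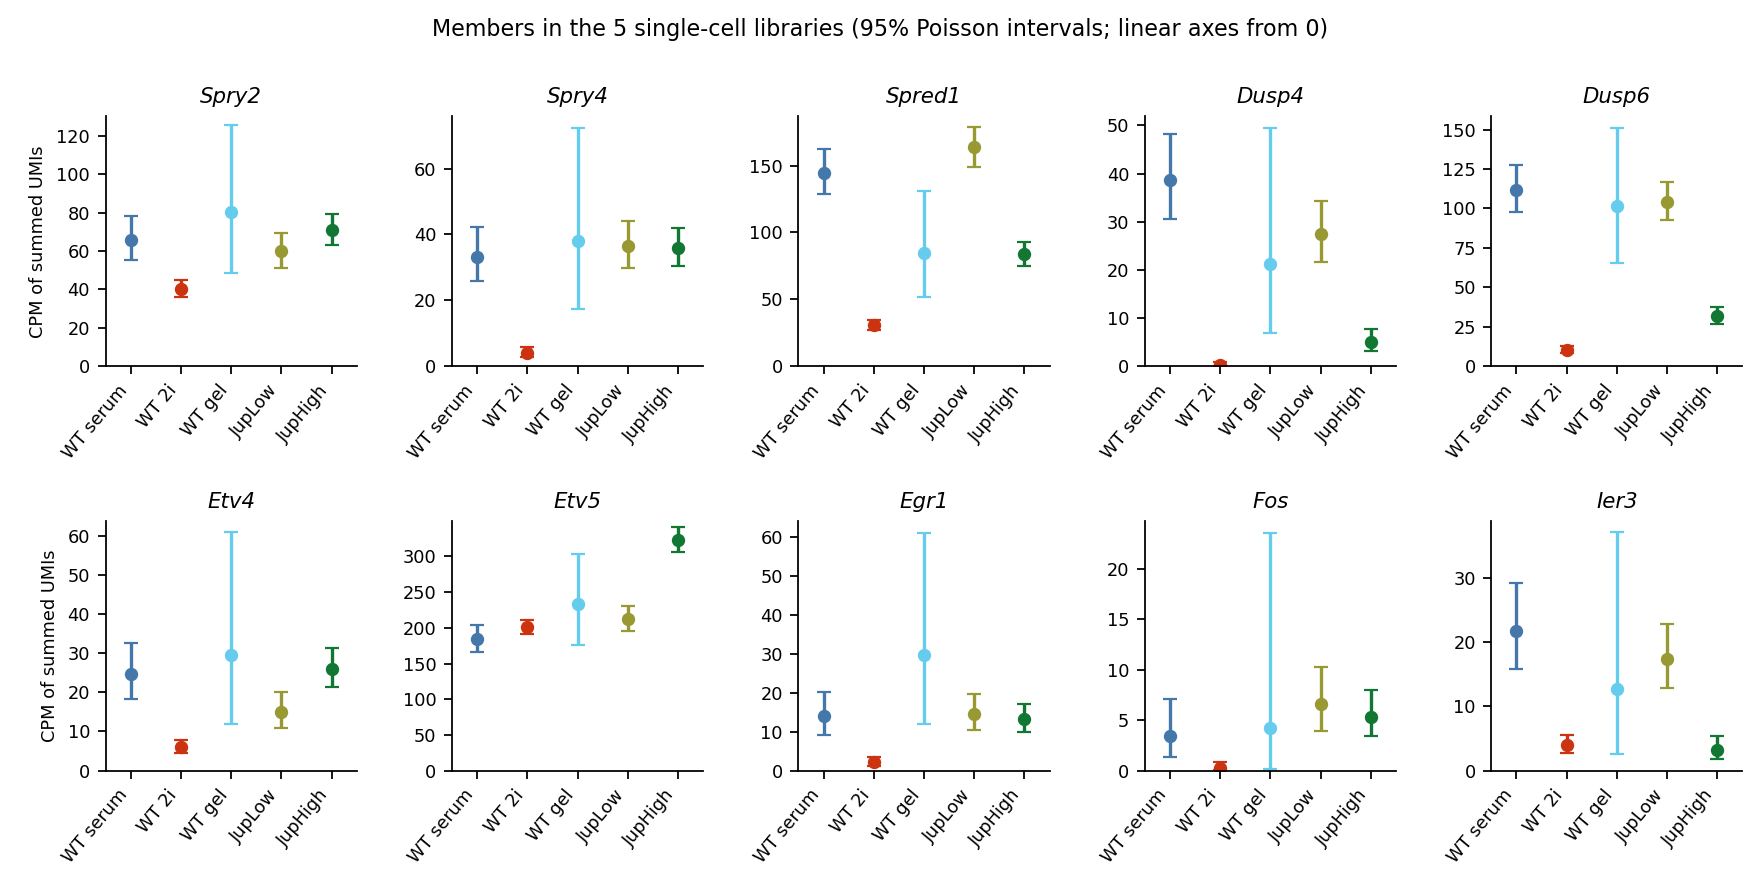
Level of each member (CPM of summed UMIs, linear axes from 0) in the 5 single-cell libraries, WT being E14 wild type. Points are libraries and bars 95% Poisson intervals. The 2i/LIF library is lowest for every member except Etv5 and Ier3, and JupHigh is low for Dusp4, Dusp6, Ier3 and, less so, Spred1.

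Among the receptor-level inhibitors, Spry4 (chr18:38586247-38601415) had the lowest ratio. Sprouty proteins block the step from receptor to RAS and RAF. Spry4 stood at 33.2 CPM in E14 serum/LIF, 38.1 in gel, 36.5 in JupLow and 36.0 in JupHigh, and at 4.10 (2.84 to 5.74) in 2i/LIF. The 4 serum/LIF libraries could not be told apart by their intervals, and 2i/LIF lay below all of them, with a log2 ratio of -3.02 (-3.66 to -2.40) to E14 serum/LIF. Spry2 (chr14:105891947-105896819), its paralog, behaved differently: it stood at 65.9 CPM in E14 serum/LIF, 80.4 in gel, 59.8 in JupLow, 70.8 in JupHigh and 40.1 in 2i/LIF. It was thus also lowest in 2i/LIF, with an interval clear of the next library, but the log2 ratio was only -0.72 (-1.01 to -0.42), short of the threshold.

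Spred1 (chr2:117121374-117182279), which brings neurofibromin to the membrane to switch RAS off, was at 144.7 CPM (128.6 to 162.3) in E14 serum/LIF and 163.6 CPM in JupLow. It was lower in gel, at 84.7 CPM (51.7 to 130.8), and in JupHigh, at 83.5 CPM (75.1 to 92.6), and lowest in 2i/LIF, at 30.8 CPM (27.1 to 34.8). The libraries formed 3 steps, with E14 serum/LIF and JupLow on top, JupHigh in the middle and 2i/LIF below, and the wide interval of gel overlapping those of E14 serum/LIF and JupHigh. The log2 ratio of 2i/LIF to serum/LIF was -2.23 (-2.48 to -1.99).

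The phosphatases were lowest in 2i/LIF and next lowest in JupHigh. Dusp6 (chr10:99263231-99267489) encodes a cytoplasmic phosphatase that inactivates ERK and is transcribed in response to it. It was at 112 CPM (97.9 to 127.6) in E14 serum/LIF, 104.2 in JupLow and 101.6 in gel, at 31.8 (26.7 to 37.6) in JupHigh and at 10.3 (8.20 to 12.7) in 2i/LIF. The first 3 overlapped, while JupHigh and 2i/LIF were each separate from every other library. The log2 ratio of 2i/LIF to serum/LIF was -3.45 (-3.83 to -3.08). Dusp4 (chr8:34807297-34819894), the nuclear counterpart, was at 38.7 CPM in E14 serum/LIF, 27.4 in JupLow, 21.2 in gel (5 UMIs) and 5.10 in JupHigh. In 2i/LIF it had 2 UMIs in 2889 cells, 0.241 CPM (0.0292 to 0.872), a log2 ratio of -7.32 (-10.39 to -5.42).

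The ETS factors, which carry ERK output to transcription, went separate ways. Etv4 (chr11:101769742-101785371) was at 24.8 CPM in E14 serum/LIF, 29.6 in gel, 26.0 in JupHigh, 14.9 in JupLow and 5.91 (4.38 to 7.82) in 2i/LIF. It was lower in 2i/LIF than in serum/LIF by a log2 ratio of -2.07 (-2.67 to -1.47). Etv5 (chr16:22381309-22439719), its close relative, was at 183.8 CPM (165.6 to 203.5) in serum/LIF and 200.5 CPM (191.0 to 210.4) in 2i/LIF, and the interval of the log2 ratio, 0.13, ran from -0.04 to 0.29. A fall of Etv5 in 2i/LIF by more than 0.04 on the log2 scale lay outside that interval. Etv5 was the only member not lower in 2i/LIF on the point estimate.

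The immediate early genes were sparse. Egr1 (chr18:34859823-34864984), a zinc-finger factor induced directly by ERK through serum response factor, was at 13.9 CPM in E14 serum/LIF, 29.6 in gel (7 UMIs), 14.6 in JupLow, 13.2 in JupHigh and 2.17 (1.29 to 3.43) in 2i/LIF. Fos (chr12:85473890-85477273), a subunit of AP-1, had 7 UMIs in E14 serum/LIF, 1 in gel, 19 in JupLow and 23 in JupHigh, which is 3.47, 4.23, 6.60 and 5.34 CPM. It had 2 UMIs, or 0.241 CPM, in the far deeper 2i/LIF library. Their log2 ratios of 2i/LIF to serum/LIF were -2.67 (-3.62 to -1.77) for Egr1 and -3.84 (-7.15 to -1.45) for Fos, and with 10 CPM added to both libraries neither was 2-fold lower.

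Ier3 (chr17:35821684-35822923), an early gene that prolongs ERK activity and affects survival, was at 21.8 CPM (15.8 to 29.3) in E14 serum/LIF, 17.4 in JupLow and 12.7 in gel (3 UMIs). Its levels in 2i/LIF, 3.98 CPM (2.74 to 5.59), and in JupHigh, 3.25 CPM (1.78 to 5.45), overlapped. The log2 ratio of 2i/LIF to serum/LIF was -2.45 (-3.15 to -1.77).

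The same 8 members were at least 2-fold lower when 2i/LIF was set against JupLow in place of wild type, where 10.8% of 8816 genes with a mean of at least 10 CPM were, and 6 of the 8 members above that mean. The ratios share the 2i/LIF library with those above. Spry4, Dusp4, Etv4 and Ier3 were below 10 CPM in 2i/LIF and passed that mean only through JupLow. In the comparison with gel, Spry4, Dusp4, Etv4 and Egr1 passed it only through gel. Against the gel library 9 were at least 2-fold lower, Spry2 included at -1.01 (-1.67 to -0.25), against 12.1% of 8692 genes with that mean and 7 of the 8 members above it, but the intervals of Fos and Ier3, which had 1 and 3 UMIs in gel, included 0.

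In JupHigh, 3 of the 10 members were lower than in JupLow: Dusp4, Dusp6 and Ier3. Of 8686 genes with a mean of at least 10 CPM, 7.97% were at least 2-fold lower and 2.65% at least 2-fold higher. All members but Fos passed that mean, and the median log2 ratio of these 9 was -0.14, against -0.12 for all genes tested. Dusp4 and Ier3 were below 10 CPM in JupHigh and passed only through JupLow, which at those levels required a fall of at least 2-fold. These ratios share no library with those of E14 2i/LIF to E14 serum/LIF, but share JupLow with those of 2i/LIF to JupLow. The label of high or low plakoglobin cannot be told apart from other differences between the 2 lines.

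**Figure D2:**
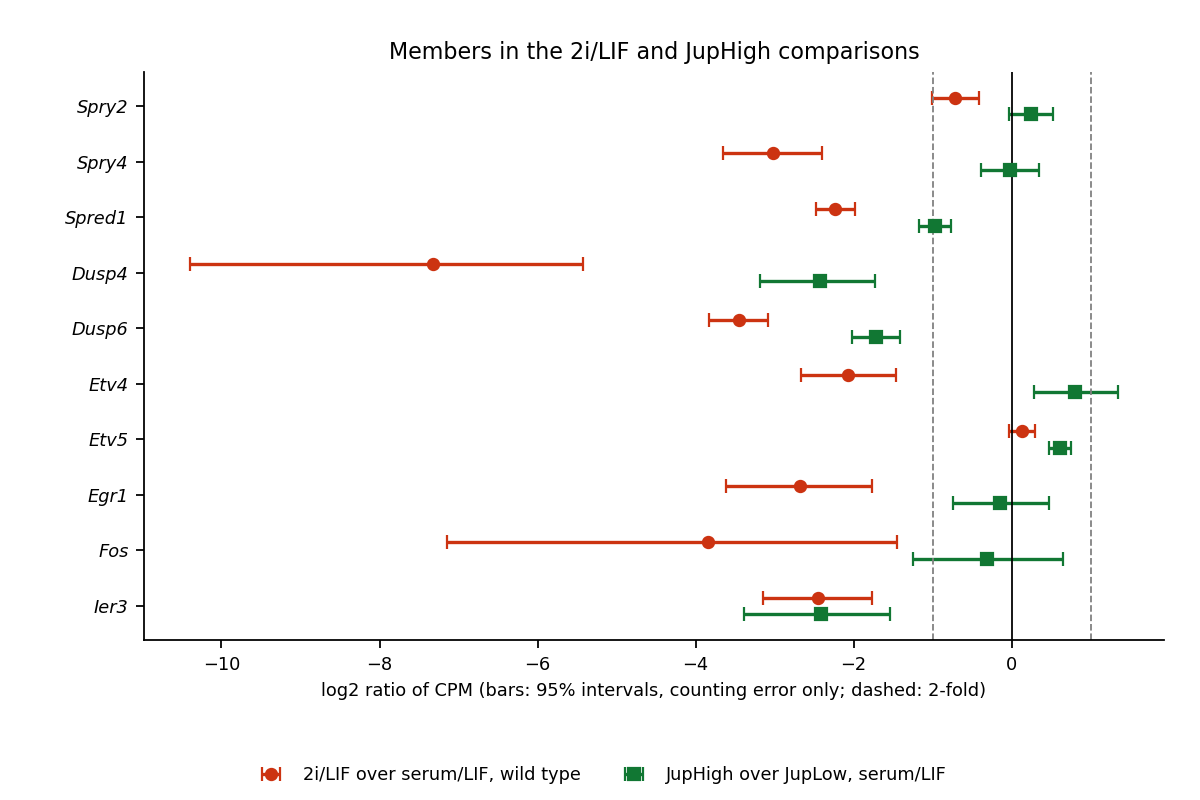
log2 ratios of CPM for the 10 members, 2i/LIF over serum/LIF in E14 (circles) and JupHigh over JupLow (squares), with 95% intervals that cover counting error only. Dashed lines are 2-fold. Dusp4, Dusp6 and Ier3 lie beyond 2-fold on the low side in both, Spry4, Spred1, Etv4, Egr1 and Fos in the 2i/LIF comparison alone.

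Dusp4 had a log2 ratio of JupHigh to JupLow of -2.43 (-3.18 to -1.73), from 22 against 79 UMIs. Dusp6 had -1.71 (-2.02 to -1.42), from 137 against 300 UMIs, and Ier3 had -2.42 (-3.39 to -1.54), from 14 against 50 UMIs. Over the alternatives the log2 ratio ran from -4.49 (thinned cells) to -1.05 (10 CPM added) for Ier3, from -2.92 to -1.31 for Dusp4 and from -1.89 to -1.45 for Dusp6. For all 3, JupHigh was also lower than E14 serum/LIF, with log2 ratios of -2.92, -1.82 and -2.75, where 14.0% of 8788 genes were at least 2-fold lower. JupLow did not differ from wild type for Dusp6 (-0.10, -0.36 to 0.15) or Ier3 (-0.33, -0.94 to 0.29) beyond counting error, and was lower for Dusp4 (-0.49, -0.96 to -0.02). The ratios to wild type share the JupHigh or the serum/LIF library with others given here.

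Spred1 lay just outside the threshold, 1.96-fold lower in JupHigh than in JupLow with a log2 ratio of -0.97 (-1.17 to -0.77), and over the alternatives it ran from -1.07, past the threshold, when only cells with at least 2000 UMIs were used, to -0.61 with at least 500 and -0.41 with every deposited barcode. Against E14 serum/LIF it was 1.73-fold lower.

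Spry4, Spry2, Egr1 and Fos were not distinguishable between the libraries labelled JupHigh and JupLow. Their log2 ratios were -0.02 (-0.39 to 0.35), 0.24 (-0.03 to 0.52), -0.14 (-0.74 to 0.47) and -0.31 (-1.25 to 0.65). For Spry4 and Spry2 the intervals exclude a 2-fold fall, and for Egr1 as well, while for Fos they do not. After thinning of each cell to 1000 UMIs, Fos, with 5 against 8 UMI-positive cells, was also past 2-fold.

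The ETS factors were higher in JupHigh than in JupLow, each by less than 2-fold. Etv5 was at 323.6 CPM (306.8 to 341.0) in JupHigh, above all 4 other libraries, and at 212.6 CPM in JupLow. Its log2 ratio was 0.61 (0.47 to 0.75) to JupLow and 0.82 (0.65 to 0.98) to E14 serum/LIF. Etv4 had a log2 ratio of 0.80 (0.28 to 1.34) to JupLow, but 0.07 (-0.42 to 0.58) to E14 serum/LIF, and JupLow itself was lower than wild type, at -0.73 (-1.35 to -0.11).

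Set against 2i/LIF directly, JupHigh was at least 2-fold higher for 7 of the 10 members, where 3.59% of 8512 genes with a mean of at least 10 CPM were. Of the 6 members above that mean, 4 were, of which Spry4 and Etv4 were below 10 CPM in 2i/LIF and passed only through JupHigh. The log2 ratios of JupHigh to 2i/LIF were 3.13 for Spry4, 1.44 for Spred1, 4.40 for Dusp4, 1.63 for Dusp6, 2.14 for Etv4, 2.61 for Egr1 and 4.47 for Fos, with every interval above 0. Dusp6, Dusp4 and Spred1 in JupHigh were therefore between their levels in 2i/LIF and in JupLow. Ier3 was the member whose JupHigh level could not be told from that in 2i/LIF, at -0.29 (-1.31 to 0.65).

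The E14 gel library could be placed only roughly, since it had 1 to 55 UMIs per member. Egr1 was 2.14-fold higher in gel than on plastic in serum/LIF, but its interval of the log2 ratio, -0.34 to 2.32, included 0, and 7.51% of 8877 genes were at least 2-fold higher. Spred1 was the only member whose interval excluded 0, with a log2 ratio of -0.77 (-1.51 to -0.12). Etv5 was at 232.9 CPM in gel, a log2 ratio of 0.34 (-0.10 to 0.75).

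The share of cells with at least 1 UMI of a member was compared after every cell had been thinned to 1000 UMIs, since depth differed. Dusp6 was seen in 9.93% (exact binomial 95% interval 7.85 to 12.3) of E14 serum/LIF cells and 8.67% (7.14 to 10.4) in JupLow, but in 2.79% (2.13 to 3.57) in JupHigh and 1.07% (0.73 to 1.52) in 2i/LIF. Before thinning the shares were 21.0%, 17.2%, 6.22% and 2.80%. Spred1 gave 13.8% (11.4 to 16.5), 14.1% (12.2 to 16.2), 7.94% (6.83 to 9.17) and 2.49% (1.95 to 3.13) in that order, and 27.7%, 28.4%, 14.7% and 8.03% before thinning. The order of the libraries was that of the CPM for both genes.

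Etv5 was the most widely seen member, in 15.6% (13.0 to 18.4) of E14 serum/LIF cells, 17.5% (16.2 to 19.0) in 2i/LIF, 17.4% (15.3 to 19.7) in JupLow and 26.1% (24.3 to 28.1) in JupHigh. Before thinning these were 33.7%, 37.6%, 34.3% and 43.7%. Dusp4 was seen in 2.34% of cells in serum/LIF and in 1 of 2889 cells in 2i/LIF, both after thinning. Fos was seen after thinning in 0 of 2889 cells there, where 3 counts of the total, taken as the limit, allow a share of cells with a UMI of up to 0.104%, and in 2 cells before thinning. For the rarest genes a share rests on few cells, 2 in JupHigh for Ier3. In total 55.6% of E14 serum/LIF cells, 55.8% in JupLow, 58.1% in JupHigh and 76.3% in 2i/LIF held no UMI of any member after thinning. No thinned cell held more than 4 UMIs of 1 member, and before thinning the highest was 11, of Spred1 in E14 serum/LIF.

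As a measure of free RNA, barcodes with fewer than 500 UMIs were summed. No cell type known to lack the members was at hand for comparison. The 2i/LIF table had 1 such barcode, so it gave no value. Dusp4 stood in them at 39.2 CPM, against 38.7 in the cells of E14 serum/LIF, and Dusp6 at 51.8 against 31.8 in JupHigh. Ier3 was higher in them, at 42.9 against 21.8 CPM for E14 serum/LIF, 45.1 against 17.4 in JupLow and 8.63 against 3.25 in JupHigh. Spred1 was lower in them, at 88.5 against 144.7 CPM in E14 serum/LIF and 63.0 against 163.6 in JupLow. In these barcodes Dusp4 was at 6.91 CPM (1.88 to 17.7, from 4 UMIs) in JupHigh and 20.7 (14.6 to 28.3) in JupLow. Dusp6 was at 51.8 (34.9 to 73.9) and 83.7 (71.0 to 98.0). The separate intervals overlapped at their ends for both genes, which does not exclude a difference. No interval of the ratio was computed for these barcodes. Ier3 was at 8.63 (2.80 to 20.1) and 45.1 (35.9 to 55.9), without overlap, and Spred1 at 72.5 and 63.0 CPM. These barcodes come from the same cultures as the cells.

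The cells of each library were split by whether they held, after thinning, a UMI of Nanog, Zfp42, Esrrb or Klf4, markers of naive pluripotency. Such cells made up 27.2% of E14 serum/LIF, 71.5% in 2i/LIF, 31.2% in gel, 26.7% of JupLow and 75.0% of JupHigh. Etv5 was higher in the marker-positive cells of every library, with log2 ratios of 0.45 (-0.09 to 0.98), 0.68 (0.38 to 1.00), 1.72 (0.31 to 3.22), 0.82 (0.43 to 1.21) and 0.56 (0.28 to 0.85) in that order. Only the interval of E14 serum/LIF included 0. Spred1 differed by less than counting error within every library.

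Dusp6 was lower in the marker-positive cells of JupLow, at 68.8 against 115.9 CPM, a log2 ratio of -0.75 (-1.49 to -0.08). In JupHigh it was at 28.5 and 26.0 CPM, so JupHigh was below JupLow among marker-positive and among marker-negative cells alike. Spred1 was at 83.0 CPM in the marker-positive cells of JupHigh and 171.9 in those of JupLow, and at 91.1 and 155.7 CPM in the marker-negative ones. Marker-positive cells were not alike in the 2 lines, since 1035 of 1615 held 2 or more marker UMIs in JupHigh and 123 of 320 in JupLow. Among those with 2 or more, Dusp6 was at 32.9 CPM (22.7 to 45.9) in JupHigh and 73.2 (33.5 to 138.9) in JupLow, and Spred1 at 69.6 (54.4 to 87.6) and 113.8 (62.2 to 191.0), with overlapping intervals for both. Cells without a marker UMI may hold the transcript undetected, and all cells of a library share 1 culture.

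**Figure D3:**
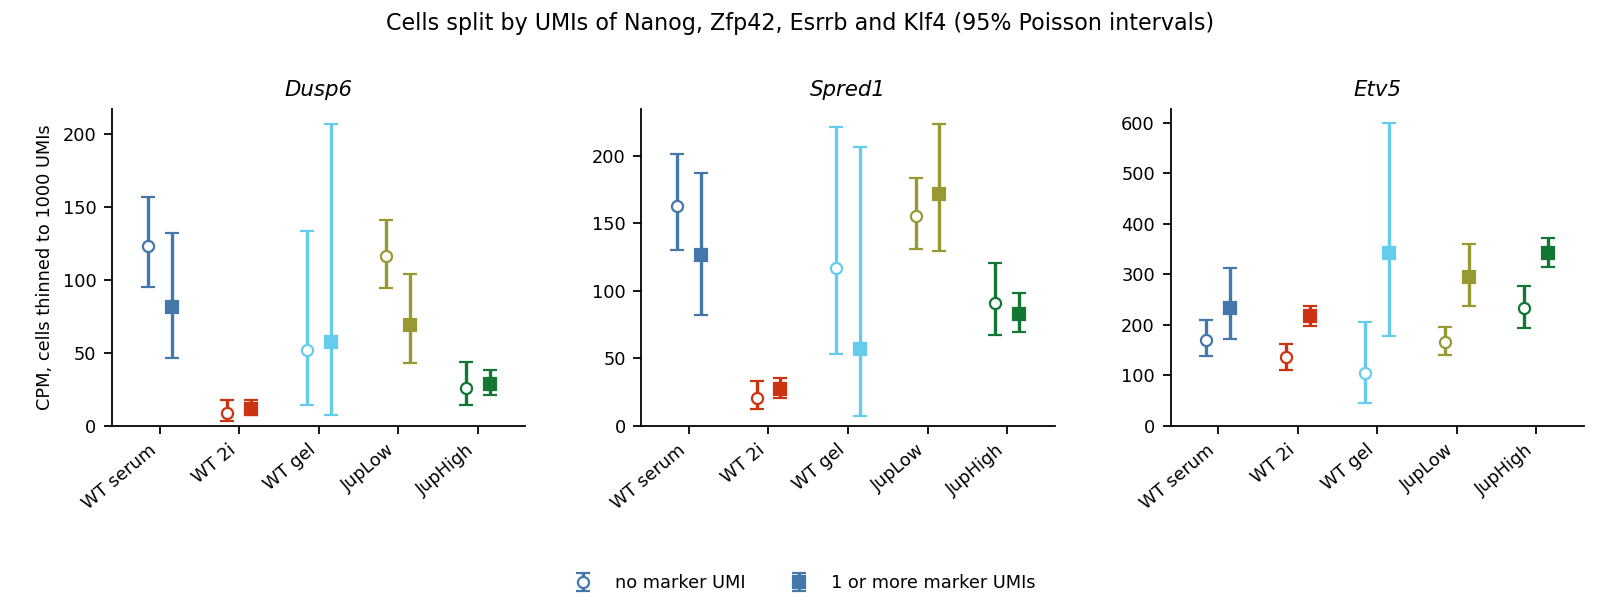
CPM of Dusp6, Spred1 and Etv5 in cells without (open circles) and with (filled squares) a UMI of Nanog, Zfp42, Esrrb or Klf4, after thinning to 1000 UMIs, in the 5 single-cell libraries. Bars are 95% Poisson intervals. Etv5 is higher in marker-positive cells of each library, and Dusp6 and Spred1 are lower in JupHigh than in JupLow for both kinds of cell.

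Other genes of the pathway were read from lists. A list gene below 10 CPM in either library passed the mean only through the other, where it is higher. The counts and medians of the lists can therefore be partly set by the filter. Of 7 other feedback genes that passed the mean of 10 CPM, 4 were at least 2-fold lower in 2i/LIF and none higher, with a median log2 ratio of -1.28. In JupHigh 5 of 8 were at least 2-fold lower than in JupLow, with a median of -1.59. Of all genes tested, 14.6% were at least 2-fold lower in 2i/LIF and 7.97% in JupHigh, with medians of -0.04 and -0.12. Among those with at least 50 CPM in the higher library, the lowest ratios in each comparison belonged to Phlda1 (log2 ratios -4.87 and -3.72), Dusp9 (-4.75 and -2.05), an ERK phosphatase high in ES cells, and Dusp1 (-2.11 and -2.25), a nuclear MAP kinase phosphatase. Phlda1 was at 2.29 CPM in 2i/LIF and 4.64 in JupHigh, and Dusp9 at 6.28 in 2i/LIF. Being below 10 CPM there, they passed only through the library where they are higher. Phlda1 shares 33.0% of its exonic bases with an antisense gene. Il17rd, a receptor-level inhibitor also called Sef, was among those not lower, at 0.43 (0.13 to 0.74) in JupHigh over JupLow.

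Of 12 other immediate early genes, 8 were at least 2-fold lower in 2i/LIF, with a median of -1.67, and 7 in JupHigh, with a median of -1.62. Over all genes tested the shares were 14.6% and 7.97%, and the medians -0.04 and -0.12. Junb, an AP-1 subunit, had log2 ratios of -2.17 and -1.67, and Klf6 had -1.79 and -2.43. Jund, at -1.83 in JupHigh, shares 52.6% of its exonic bases with an overlapping gene. Myc, which ERK stabilises and induces, was at -1.84 in 2i/LIF, with 19.1 CPM against 68.4, and stood at 97.0 CPM in JupHigh and 120.6 in JupLow. Ier2 was not lower in either, at 0.28 and 0.32.

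The FGF receptor to ERK cascade itself showed smaller ratios. Of 21 genes, 2 were at least 2-fold lower and 2 higher in 2i/LIF, with a median of -0.28. In JupHigh 3 were lower, with a median of -0.30, Fgfr1 (-1.05) and Braf, just past 2-fold, among them. Of all genes tested, 14.6% were at least 2-fold lower and 9.19% higher in 2i/LIF, and 7.97% lower in JupHigh. In 2i/LIF, Fgf4, the ligand, was at 93.8 CPM against 24.3 in serum/LIF (1.95), Braf was at -1.53 and Fgfr2 at -2.79. For Fgfr2, the E14 serum/LIF library stood apart from all other libraries, at 922 CPM there and at 133.6 to 258.3 elsewhere. The Fgfr2 model spans many genes, so its value in that table is uncertain.

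Of 5 WNT targets, read as the other arm of 2i, 3 were at least 2-fold higher in 2i/LIF (Notum 3.86, Axin2 3.78, Sp5 2.93) and 1 lower (Lef1 -1.27). In JupHigh 3 were higher than in JupLow (Sp5 2.31 the largest) and none 2-fold lower. Of all genes tested, 9.19% were at least 2-fold higher in 2i/LIF and 2.65% in JupHigh. Notum, Axin2 and Sp5 were below 10 CPM in serum/LIF (7.43, 5.45 and 8.92). They passed the mean of 10 CPM only through 2i/LIF, so their count was favoured by the filter. Notum shares 38.1% of its exonic bases with genes on the opposite strand. Sp5 was at 79.3 CPM in JupHigh, 16.0 in JupLow, 68.1 in 2i/LIF and 8.92 in E14 serum/LIF. Heat-shock genes, which like the early genes answer to handling, summed to 2545, 2513, 2138, 2243 and 2321 CPM in E14 serum/LIF, 2i/LIF, gel, JupLow and JupHigh. Hsp90aa1 was the most abundant of them in each library. Of 6 such genes above the mean of 10 CPM, only Hspa1b was at least 2-fold lower both in 2i/LIF over serum/LIF (-1.84) and in JupHigh over JupLow (-1.09). The part of handling in the results was not tested.

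**Figure D4:**
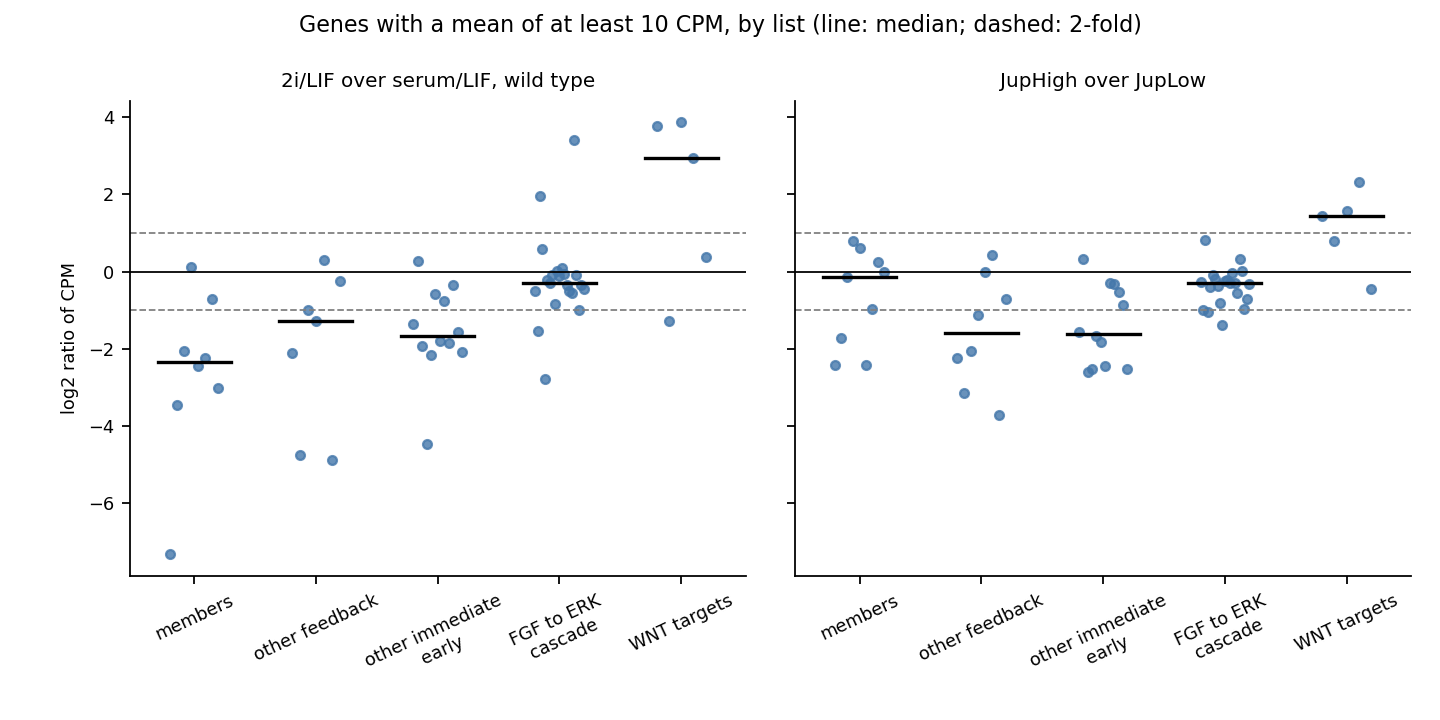
log2 ratios of CPM for genes with a mean of at least 10 CPM in the 2 libraries compared, by list, for 2i/LIF over serum/LIF (left) and JupHigh over JupLow (right). Each point is a gene, black lines are medians and dashed lines 2-fold. A gene below 10 CPM in either library enters only through the other. The other feedback and immediate early genes have medians between -1.28 and -1.67 in both panels, while the members' median is -2.34 on the left and -0.14 on the right.

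The genes whose levels over the 5 libraries were most like the members' mean were sought among 4537 non-members with at least 50 CPM in some library. Likeness was the root mean square distance of log2(CPM + 1), centred on its mean over the libraries. The nearest were G2e3 (0.11), Slc38a4 (0.15), Chd7 (0.16), Dnmt3b (0.17) and Ajuba (0.18). Dnmt3b, a de novo DNA methyltransferase, was at 554.5 CPM in E14 serum/LIF, 711.3 in gel, 646.9 in JupLow, 350.3 in JupHigh and 150.0 in 2i/LIF. This is a description over 5 libraries.

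In the bulk libraries, with MEK inhibited throughout, 3 members were deep enough to test. Etv5 and Spred1 were called higher in gel by limma with Benjamini-Hochberg adjustment, and Spry2 was not called. Spred1 passed the expression filter only through the gel libraries, where it is high, so its call was favoured by the filter. Of 7878 genes tested, 36.9% were called, 18.3% higher and 18.6% lower in gel. Values are the authors' normalised read counts, and nothing in the labels says that the replicates came from separate cultures, so p-values measure the spread between these libraries. Fewer cells of a type and less RNA per cell cannot be told apart in bulk. Endoderm and fibroblast markers had no row in the table used here (0 of 7 each).

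Etv5 was at 401.8, 385.5 and 303.7 in the gel libraries and 242.7, 231.7 and 302.1 in the plastic ones, a mean of 363.7 ± 52.6 against 258.8 ± 37.9 (SD, n = 3). The lowest gel library was only just above the highest plastic one, so the groups did not overlap. The log2 fold change was 0.49 (SE 0.13, limma adjusted p = 0.0062), and the call held in all alternatives run, from 0.41 to 0.61.

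Spred1 was at 18.1, 20.9 and 12.4 in gel and 9.56, 11.3 and 4.55 in plastic, a mean of 17.1 ± 4.33 against 8.49 ± 3.52 (SD, n = 3). The groups did not overlap, which held for 49.5% of all genes tested, with gel above in 24.4%. The log2 fold change was 1.03 (SE 0.39, limma adjusted p = 0.0437), and the values rest on few reads (16, 17 and 9 for gel, 23, 29 and 3 for plastic). The call was lost under DESeq2 (adjusted p = 0.131) and without any 1 of gel replicate 1, gel replicate 2, plastic replicate 1 or plastic replicate 3, and without plastic replicate 3 the log2 fold change was 0.66. In the serum/LIF single cells the sign was the opposite, -0.77, though line, medium and assay all differ.

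Spry2 was at 79.0, 58.9 and 97.6 in gel and 94.3, 102.9 and 83.5 in plastic, and the groups overlapped, with a log2 fold change of -0.28 (SE 0.17, limma adjusted p = 0.220). The other 3 members in the table were below the filter on low values and were not tested in the main comparison. Etv4 was at 11.3, 20.9 and 12.4 in gel and 5.82, 5.48 and 3.04 in plastic, without overlap, from 2 to 17 reads per library. With no filter limma gave it a log2 fold change of 1.53 and an adjusted p of 0.0127. Ier3 was at 4.51, 4.91 and 5.50 in gel and 2.91, 3.52 and 1.52 in plastic, from 1 to 9 reads. Dusp6 was at 11.3, 16.0 and 2.75 in gel and 10.8, 7.43 and 13.7 in plastic, where the groups overlapped.

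**Figure D5:**
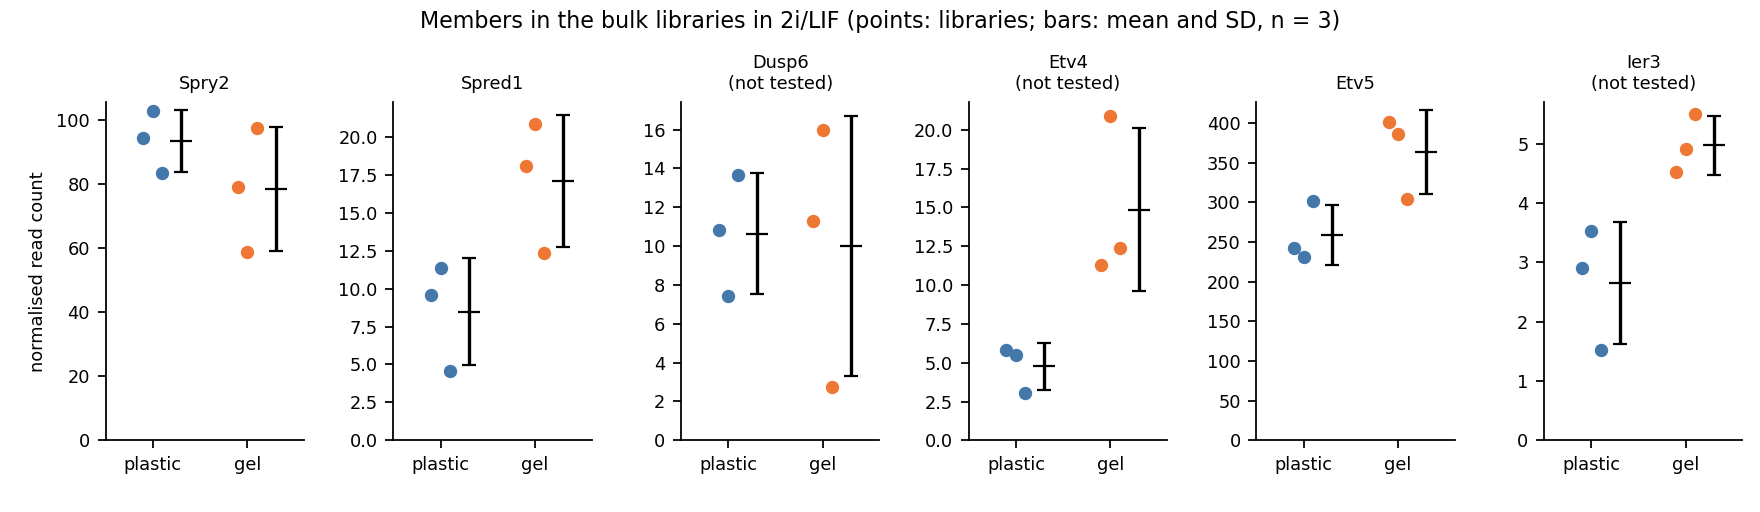
Normalised read counts (linear axes from 0) of the 6 members with a row in the bulk table, in 3 plastic and 3 gel libraries in 2i/LIF. Points are libraries and bars mean and SD. Gel lies above plastic without overlap for Spred1, Etv4, Etv5 and Ier3, of which Etv4 and Ier3 were too low to test, and the groups overlap for Spry2 and Dusp6. Of all genes tested, 49.5% did not overlap, 24.4% with gel above. This share does not cover genes as low as Etv4 and Ier3.

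Of the other lists in bulk, 5 immediate early genes were tested, of which 4 were called higher in gel and 1 lower by limma, with a median log2 fold change of 0.97. The highest were Nr4a1 (1.34), Ier2 (1.09) and Mcl1 (0.97), and Btg2 was lower (-0.58). Of 3 other feedback genes, Errfi1, an inhibitor of the EGF receptor, was called lower (-1.23). The cascade had 4 of 18 genes called higher (Hras 1.12, Grb2 1.10 and Sos1 0.89 the largest) and 4 lower, Nras (-0.58) and Map2k1 (-0.47) among them, and its median was 0.07, against -0.02 for all genes tested. Of 4 WNT targets tested, 3 were called higher in gel (Sp5 1.73, Tcf7 1.38 and Cdx1 1.09) and Notum was not called (0.47), with a median of 1.24. Of 7 ES cell markers, 4 were called higher (Klf4 1.84, Esrrb 1.55, Sox2 1.51 and Pou5f1 1.31) and 3 lower (Sall4 -0.80, Nanog -0.34 and Zfp42 -0.32). Of 5 heat-shock genes, 1 was called higher and 2 lower. Sp5, Cdx1, Nr4a1 and Hras were below the filter on low values in every plastic library and passed only through gel. Grb2 and Tcf7 were below it in plastic replicates 1 and 3 and also passed only through gel. The calls of all these genes as higher in gel were therefore favoured by that filter. Errfi1 was below it in gel replicates 1 and 3 (7 and 4 reads) and passed only through plastic (48, 48 and 15 reads). Its call as lower in gel was favoured in the same way.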

How the data were processed

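Bulk values are deposited as a signal: gene counts that the authors divided by 1 factor per library, as read from the values, since whole reads were recovered for 100% of them within 0.01 reads (637235 to 2583256 reads per library). The design foresaw limma on such values. Single-cell tables hold UMI counts per gene and barcode as the authors deposited them. The submitters' processing notes name STAR, featureCounts, FastQC, DESeq2 and Scanpy, and mm10 or GRCm38. Versions, roles and strand setting are not given in the sources used here.

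In bulk, log2(value + 0.5) was tested with limma 3.58.1 (R 4.3.3, trend) on 7878 genes that passed edgeR's expression filter, with Benjamini-Hochberg adjustment at 0.05. On simulated data for gel against plastic, 93% of 200 genes changed 4-fold were called among 7851. The fold change of low genes is understated.

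Cells needed 1000 UMIs, without an upper limit or a doublet caller. Barcodes with 8 G at each end, 1 cut-off line of the gel table and unnamed columns (0.00509% to 0.499% of UMIs) were left out. The shares of cells carry exact binomial intervals in the results.

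Members and lists were chosen with earlier results of these data known. List genes were named by rule: the 3 largest ratios in each direction at 50 CPM or more in single cells, and the 3 largest called changes in bulk. The text gives those that bear on the members, and some values of the cascade's genes are not reported here. Alternatives tried were pseudocounts, filters, edgeR 4.0.16, DESeq2 1.42.0, cell minimums, TMM factors, thinning, other comparators and leaving out libraries. Leaving out cells with endoderm or fibroblast markers was added after the data were seen.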

Additional observations from a re-analysis of the deposited data

How the results depend on the processing

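The 2i/LIF count of 8 members at least 2-fold lower, taken here on the fold alone, was 8 under 9 of 12 alternatives, 6 with 10 CPM added (Egr1 and Fos dropped out), 7 after thinning (Fos, at 0 in 2i/LIF, gave no ratio) and 9 against gel. The JupHigh count of 3 was 4 with at least 2000 UMIs per cell (Spred1 added) and after thinning (Fos added), and 3 under the other 9. The 11 ratios of members past 2-fold in these 2 comparisons kept their sign under each alternative that gave one. Fos in JupHigh, which was short of 2-fold, ran from -1.52 after thinning to 0.62 against E14 serum/LIF. In bulk, the count of genes called, 2906, ran from 2188 (DESeq2) to 3158 (edgeR), and from 2361 to 2833 when each library was left out. The count of members called, 2, was 1 with at least 10 reads in all libraries, 1 under DESeq2 and 1 after thinning to 637235 reads, where Spred1 was too low to test or lost its call. It ranged from 1 to 3 when each library was left out. It was 1 without gel replicate 2, and 3 without gel replicate 3 or plastic replicate 2, where Etv4 entered through gel. Without gel replicate 1, plastic replicate 1 or plastic replicate 3 the count was 2, with Etv4, again passing through gel, in the place of Spred1. Without a filter it was 2, with Etv4 in the place of Spred1 (adjusted p = 0.060).

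Replicate numbers did not pair the bulk samples: deviations of same-numbered libraries correlated at -0.05, 0.02 and 0.02. With the number as a replicate block, 2988 genes and 2 members were called. Depth limits the gel single cells (1 to 55 UMIs per member) and Fos everywhere.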

Other observations

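Egr1 and Spry4, read as ERK targets, did not differ beyond counting error between the libraries labelled JupHigh and JupLow. Dusp4, Dusp6, Ier3, Phlda1, Dusp9, Dusp1, Klf6 and Junb were lower in JupHigh. Of these, Dusp4, Ier3 and Phlda1 passed the mean of 10 CPM only through JupLow, being below it in JupHigh. Etv5, Etv4 (0.80), Il17rd (0.43) and Ier2 (0.32) were higher there, each by less than 2-fold. In E14 2i/LIF, Egr1, Spry4, Etv4 and the genes named as lower in JupHigh were lower, while Etv5 and Ier2 were not. The naive markers moved alike in both: Nanog was at 539.3 CPM in 2i/LIF and 449.8 in JupHigh, against 82.8 for E14 serum/LIF and 92.4 for JupLow, and Klf4 at 238.2 and 302.7, against 66.9 and 60.1. What sets these groups of ERK-linked genes apart in JupHigh was not tested.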
